A study of Mus musculus with 16 samples.

Results

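The genes examined here encode subunits of the oxidative phosphorylation machinery. They were measured by RNA sequencing of whole kidneys from Hes1 conditional knockout and control mice. They were chosen by symbol alone (Nduf, Sdh, Uqcr, Cox4 to Cox8 and Atp5 families of the nucleus, and the Nd, Co, Cytb and Atp genes of mitochondrial DNA), not by any measured value. The rule found 97 of the 28971 genes in the count table. Of these, 84 are nuclear, with 37 in complex I, 4 in complex II, 8 in complex III, 16 in complex IV and 19 in complex V. The other 13 are the protein genes of mitochondrial DNA, with 7 in complex I, 1 in complex III, 3 in complex IV and 2 in complex V. The symbol patterns also took in genes that are not core subunits. Among these are Ndufa4l2 (a paralogue of Ndufa4), Atp5s and Atp5sl (proteins linked to the ATP synthase and to the assembly of complex I) and the pseudogenes Atp5l-ps1 and Atp5l2-ps. Ndufa4 is grouped with complex I by its name, although its protein is now placed in complex IV.

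Oxidative phosphorylation makes most of the ATP of an aerobic cell in the inner mitochondrial membrane. Complexes I and II pass electrons from NADH and succinate to ubiquinone, complex III passes them to cytochrome c, and complex IV passes them to oxygen. Complexes I, III and IV pump protons, and complex V, the ATP synthase, makes ATP as protons flow back. All subunits of complex II are nuclear, whereas the other complexes combine nuclear subunits with a few made inside the mitochondrion. Kidney tubules, above all the proximal tubule and thick ascending limb, are rich in mitochondria because salt reabsorption consumes ATP, and intercalated cells of the collecting duct are rich in them as well.

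The study set whole kidneys of mice that were Hes1 f/f and carried TRE->Cre together with Pax8-rtTA, called Hes1 cKO (conditional knockout) below, against kidneys of wild type control littermates. Hes1 is a transcriptional repressor downstream of Notch receptors. Mice of both groups drank water with 1 mg/mL doxycycline and 5% sucrose, beginning at 3 weeks of age and lasting 1 week. In Hes1 cKO, doxycycline acts through rtTA to switch on Cre where the Pax8 promoter is active, which in kidney is the tubular epithelium, so Hes1 of blood vessels, stroma and immune cells is not targeted. The labels do not say whether the wild type littermates carry a transgene. The titles name 7 Hes1 cKO and 9 control samples, while the text of the series has these numbers swapped. The table used here has 3 columns with a mutant name and 4 with a wild type name. Their names do not say which titled sample each column is, so the numbers Hes1 cKO 1 to 3 and control 1 to 4 only name libraries. The labels number the samples of a group but do not say that each came from a separate animal, so p-values measure the spread between these libraries.

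Total counts were 16973931 to 20420422 per library. Hes1 itself was at 19.8, 17.2 and 17.5 CPM (read counts relative to the library size, scaled by the trimmed mean of M-values, TMM) in the Hes1 cKO libraries 1, 2 and 3 and at 42.8, 51.0, 67.6 and 60.9 CPM in control 1, 2, 3 and 4. Its log2 fold change, Hes1 cKO over control, was -1.61 (SE 0.16), with an adjusted p of 0.00357 by edgeR's quasi-likelihood test, so the column names fit the genotype. In that test 53 of 15615 genes were called at an adjusted p under 0.05, of which 50 were higher and 3 lower in Hes1 cKO. The 12 markers of intercalated cells were all higher (10 called), by a median of 1.31 on the log2 scale, and the 8 tested markers of principal cells were all lower (1 called). Markers of the proximal tubule, which define kidney, summed to 14517 to 19729.5 CPM in every library. Xist, a marker of female tissue, stood at 342 CPM in Hes1 cKO 3, at 333 and 367 CPM in control 3 and 4, and at or under 0.371 CPM in the other 4 libraries.

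The sequences of the mitochondrial genes come first, because several of them have a nearly identical copy elsewhere in the genome. A stretch of mitochondrial DNA lies copied into chromosome 1 of the mouse nuclear genome, where the annotation lists it as a row of pseudogenes. Read in the direction of the genes (GENCODE M21, build GRCm38), the annotated copy matched the gene at every aligned base for mt-Nd4 (876 bases aligned), mt-Nd4l (294), mt-Co2 (681), mt-Co3 (783) and mt-Atp6 (678). The copy of mt-Nd3 differed at 1 of 345 bases. The first 120 bases of mt-Nd3 (chrM:9459-9578, plus strand) and of its copy Gm28438 (chr1:24613000-24613119, minus strand) are shown, with the differing base in capitals.
mt-Nd3: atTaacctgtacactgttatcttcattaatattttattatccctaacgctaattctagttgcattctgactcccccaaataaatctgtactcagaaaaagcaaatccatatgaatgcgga
Gm28438: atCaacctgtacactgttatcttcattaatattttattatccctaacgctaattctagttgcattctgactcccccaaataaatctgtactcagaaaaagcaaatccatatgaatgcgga
Counted from the 5′ end of the gene, the difference is T3C, gene base first. The copy of mt-Co1 covers only its end, 492 of 1545 bases. There, 6 bases near the border of the copied stretch differed, T1056A, C1057T, A1059G, A1060G, C1062A and A1066T. The 120 bases of mt-Co1 from position 1054 to position 1173 (chrM:6381-6500, plus strand) and of its copy Gm29216 (chr1:24616078-24616197, minus strand) are shown in the same way.
mt-Co1: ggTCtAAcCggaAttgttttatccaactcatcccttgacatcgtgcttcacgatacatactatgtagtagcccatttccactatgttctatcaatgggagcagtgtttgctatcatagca
Gm29216: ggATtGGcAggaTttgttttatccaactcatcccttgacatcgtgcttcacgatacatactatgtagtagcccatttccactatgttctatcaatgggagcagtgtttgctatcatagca
After this border the printed stretches are the same letter for letter. A read that lies wholly inside such a stretch has at least 2 equally good places in the genome.

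The 13 genes differed widely in counts. The 5 genes with more than 90% of their 100-base windows present in an annotated nuclear copy (mt-Nd3, mt-Nd4l, mt-Co2, mt-Co3 and mt-Atp6) had 152 to 2695 counts summed over all 7 libraries. The 5 genes with under 5% of windows in a copy and a test (mt-Nd1, mt-Nd2, mt-Nd5, mt-Nd6 and mt-Cytb) had 124027 to 1116722 counts. Between them in copied share lay mt-Nd4, with 60.8% of windows copied and 371077 counts, and mt-Co1, with 30.8% and 2134072 counts. The chromosome 1 copies were themselves counted at low level: Gm28661, the copy of mt-Co2, had 1586 counts against 2695 for the gene, and Gm10925, the copy of mt-Atp6, had 1772 against 1625. The sources used here do not say how reads with more than 1 place were counted, and the part of this in the low counts was not tested. The values of the 5 copied genes are given below as they were counted. The gene mt-Atp8, a small ATP synthase subunit gene whose end overlaps the start of mt-Atp6 (chrM:7766-7969 and chrM:7927-8607), had 5 counts in all. None of its windows was in another annotated transcript, but only annotated transcripts were searched. In mitochondrial DNA it lies between mt-Co2 and mt-Atp6. Their chromosome 1 copies (chr1:24614885-24615565 and chr1:24613974-24614651) leave a stretch between them that the search did not cover. Whether that stretch holds a copy of mt-Atp8 was not tested. mt-Atp8 did not pass the filter on low counts.

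**Figure D1:**
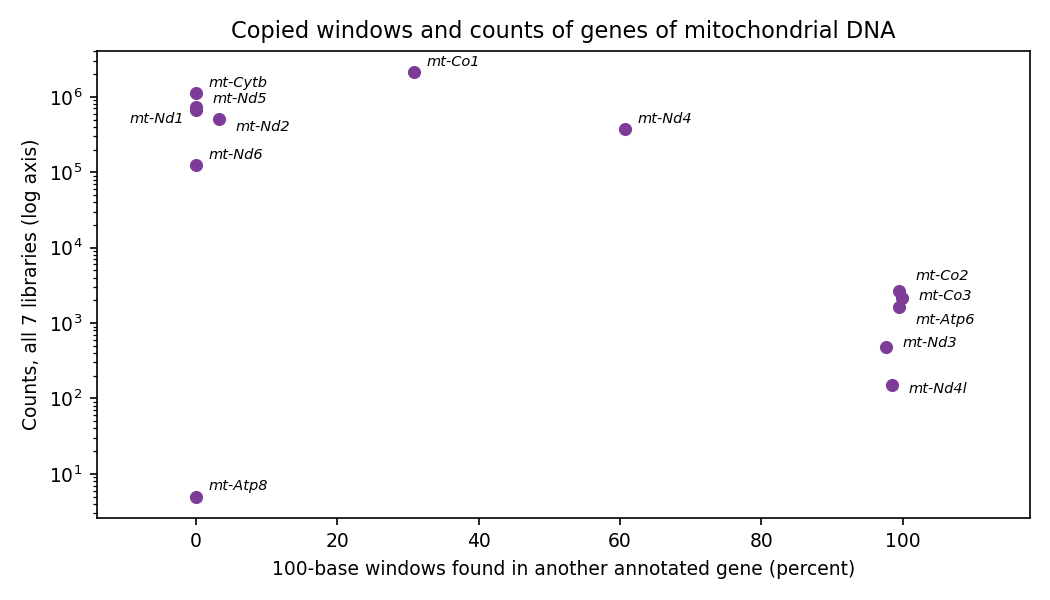
For each of the 13 protein genes of mitochondrial DNA, the percent of its 100-base windows found in another annotated gene (horizontal) is plotted against its counts summed over 7 libraries (vertical, log axis). The 5 genes above 90% sit between 152 and 2695 counts and mt-Atp8 at 5, while the others lie at 124027 or more. Only annotated transcripts were searched, so the position of mt-Atp8 does not show that it lacks a copy.

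Promoters of the nuclear members were read for motifs known from genes of respiration. RefSeq promoter windows (GRCm38.p6, 250 bases before to 50 after the start) were matched by Ensembl gene identifier, or else by symbol. Windows were found for 65 of the 84 nuclear members and were set beside the windows of all 27025 genes of that source. Each motif was searched on both strands without mismatch. The NRF1 motif GCGCATGC was present in 10 of 65 members (15.4%) and in 3.05% of all genes. The ETS motif CCGGAAG, the core bound by GABP, was present in 16 members (24.6%) and in 9.93% of all genes. The YY1 motif AAGATGGC was present in 9 members (13.8%) against 3.19%, and 7 of those 9 were genes of complex I, to which 32 of the 65 promoters belong. Complex I had 3 of the 10 members with the NRF1 motif and 4 of the 16 with the ETS motif. The motif TCAAGGTCA of oestrogen-related receptors was present in 2 members (3.08%) against 0.466%. CCAAT boxes were about as frequent in members (28, or 43.1%) as in all genes (41.1%), and the TATA motif TATAAA was present in 6 members (9.23%) against 15.7% of all genes. Median GC content was 57.3% in 70 promoters of members and 52.7% in all promoters, and its part in these shares was not tested.

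Promoters of 4 members illustrate the arrangements. Shown are the 150 bases before the start of Cox6a1, an abundant complex IV gene, at chr5:115348959-115349108 (minus strand), of Ndufa11, a complex I gene with a large fold change below, at chr17:56717612-56717761 (plus strand), of Atp5g3, the main gene of the c-ring, at chr2:73911327-73911476 (minus strand), and of Sdhb, the iron-sulphur subunit of complex II, at chr4:140961121-140961270 (plus strand). Capitals mark matches on either strand to the NRF1, ETS, oestrogen-related receptor and CCAAT motifs.
Cox6a1: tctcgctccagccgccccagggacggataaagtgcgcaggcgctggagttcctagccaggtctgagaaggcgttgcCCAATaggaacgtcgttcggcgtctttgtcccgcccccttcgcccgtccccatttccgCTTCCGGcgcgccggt
Ndufa11: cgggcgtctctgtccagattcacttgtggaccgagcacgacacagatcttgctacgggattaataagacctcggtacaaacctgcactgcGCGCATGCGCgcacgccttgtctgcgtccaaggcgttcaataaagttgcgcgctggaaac
Atp5g3: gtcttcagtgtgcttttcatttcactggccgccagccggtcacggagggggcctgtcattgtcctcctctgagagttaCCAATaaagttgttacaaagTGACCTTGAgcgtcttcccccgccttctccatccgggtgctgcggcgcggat
Sdhb: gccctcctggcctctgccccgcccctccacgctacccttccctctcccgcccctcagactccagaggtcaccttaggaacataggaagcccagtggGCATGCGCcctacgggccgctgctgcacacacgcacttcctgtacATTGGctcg
Cox6a1 holds a CCAAT box and an ETS match near the start. Ndufa11 holds the NRF1 motif on both strands, overlapping. Atp5g3 holds a CCAAT box and a receptor motif on the opposite strand, and Sdhb holds an NRF1 match and a CCAAT box read on the opposite strand. The counted windows, which are longer than the stretches shown, also held the NRF1 motif in Cox6a1 and the ETS motif in Sdhb. A match is a string of letters in these windows, not evidence of binding.

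No oxidative phosphorylation gene was called in Hes1 cKO kidneys. Of the 97 members, 94 passed the filter on low counts (82 nuclear, 12 mitochondrial), and 0 of 94 had an adjusted p under 0.05 in edgeR's quasi-likelihood test, where 0.339% of all tested genes did (0.32% higher, 0.0192% lower). DESeq2 and limma-voom also called 0 members, against 0.849% and 0.327% of all genes. The smallest adjusted p of a member was 0.488 with edgeR's quasi-likelihood test, for Uqcrb. The levels were nevertheless mostly a little lower. Of the 82 tested nuclear members, 74 had a log2 fold change under 0 and 8 above 0, so 90.2% were lower, against 51.6% of all tested genes. Their median log2 fold change was -0.10, against -0.0064 over all genes. At an unadjusted p under 0.05 there were 8 nuclear members, all lower, where 5.95% of all genes reached that level (2.61% lower, 3.34% higher). The 3 Hes1 cKO libraries all lay under all 4 control libraries for 7 nuclear members and above them for 0. Over all genes the groups did not overlap for 7.01%, with 3.29% lower and 3.71% higher.

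Libraries of a group differed by amounts of similar size. Measured as the median log2 deviation of the 82 nuclear members from the control mean, Hes1 cKO 1, 2 and 3 lay at -0.12, -0.18 and -0.02. Control 1, 2, 3 and 4 lay at -0.0021, 0.04, 0.07 and -0.11. Control 4 thus lay among the Hes1 cKO libraries, and Hes1 cKO 3 among the controls. The median was -0.07 without Hes1 cKO 2 and -0.15 without control 4, the highest and lowest values when 1 library was left out. For 71 of the 82 nuclear members the 95% interval of the log2 fold change lay within 0.5 of 0, and for 80 it lay within 1. In whole tissue, fewer cells of a type and less RNA per cell cannot be told apart.

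Log2 fold changes moved with transcript length, over all genes and among the nuclear members. Among all 15599 tested genes with a known length, the median log2 fold change was -0.06 in the shortest of 4 equal length classes (57 to 1638 bases), -0.02 in the next, 0.0074 in the third and 0.05 in the longest. The percent of genes lower in Hes1 cKO was 65.5, 56.7, 47.7 and 36.4 in the same order. Oxidative phosphorylation genes are short. Of the 82 nuclear members, 68 lay in the shortest class, 12 in the next and 2 in the third, with medians of -0.11, -0.08 and -0.02 for members. In the shortest class 91.2% of members were lower, against 65.5% of all genes, and in the next 83.3% against 56.7%. The part of length in the nuclear shift was not tested. The per-library deviations of the shortest class were -0.05, -0.08 and -0.03 for Hes1 cKO 1 to 3 and -0.01, 0.0042, 0.03 and -0.03 for control 1 to 4. The extremes among libraries were Hes1 cKO 2 and control 3 here and for the nuclear members.

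When the trend over length was removed from each library, 57 nuclear members were lower and 25 higher, with a median of -0.03, in place of 74 and 8 with a median of -0.10. The count of members at an unadjusted p under 0.05 was then 2 rather than 8. The number of called genes was 53 with and without the trend, and Hes1 kept a log2 fold change of -1.57. This removal was added after the data had been seen.

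**Figure D2:**
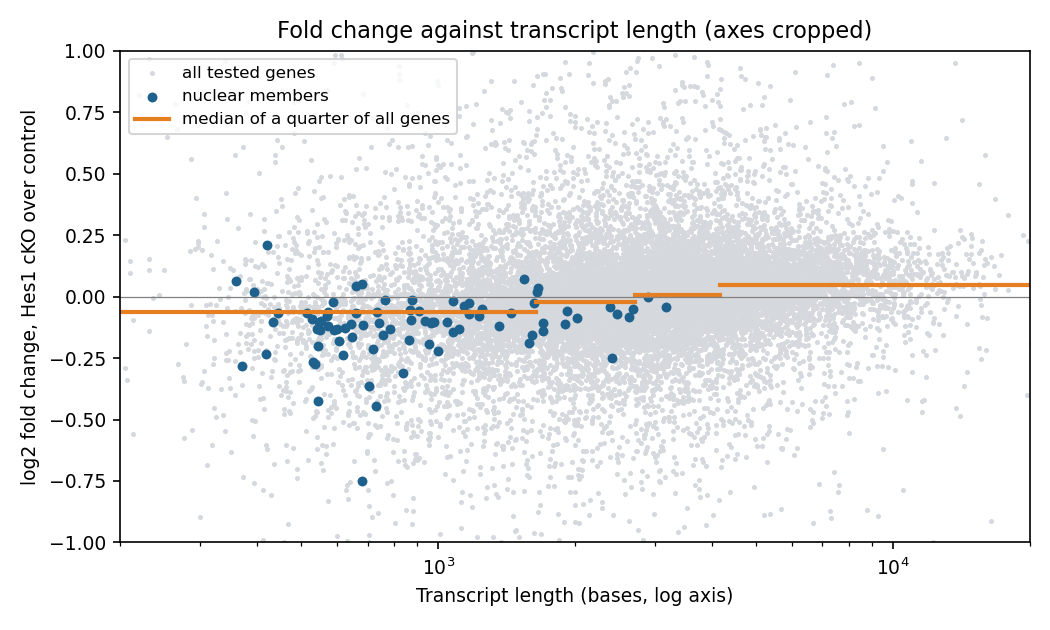
Log2 fold change, Hes1 cKO over control, against transcript length in bases (log axis) for all tested genes (grey) and nuclear members (blue); horizontal lines give the median of all genes in each of 4 length classes. The medians climb from -0.06 in the shortest class to 0.05 in the longest, and most members lie in the shortest.

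**Figure D3:**
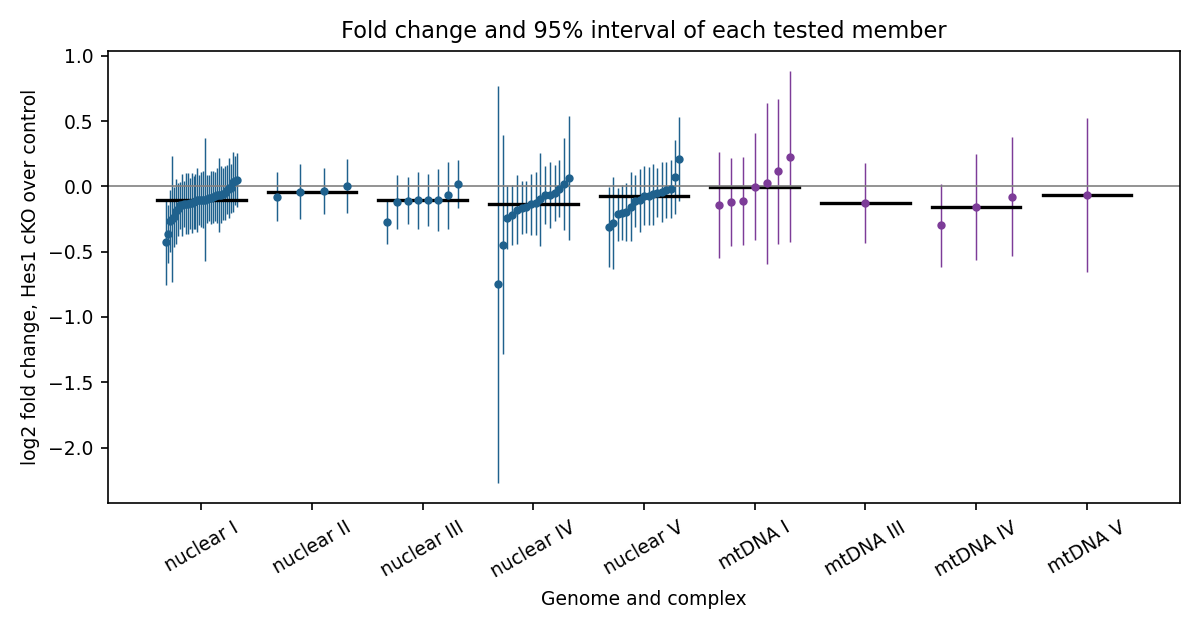
Each point is a tested member with its log2 fold change, Hes1 cKO over control, and 95% interval, ordered by value within genome and complex; black bars are medians. Most points lie just under 0, and 0 of the 94 members had an adjusted p under 0.05.

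Complex I takes electrons from NADH. Its 37 nuclear members had a median log2 fold change of -0.10, with 34 lower and 3 higher. Ndufs1 and Ndufv1 belong to the module that oxidises NADH: Ndufs1 carries iron-sulphur clusters and Ndufv1 binds the flavin and NADH. Ndufv1 was at 446, 406 and 408 CPM in the Hes1 cKO libraries and 470.5, 405, 404 and 363 CPM in the controls, values that overlap throughout, with a log2 fold change of 0.033 (SE 0.10, 95% interval -0.19 to 0.26). Ndufs1 was at 227, 249 and 251 CPM in the Hes1 cKO libraries and 256, 284, 243 and 245 CPM in the controls, and its log2 fold change was -0.084 (SE 0.088, 95% interval -0.28 to 0.11). Both genes differed by less than the spread between libraries.

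The lowest fold changes in complex I belonged to accessory subunits. Ndufb9, a subunit of the membrane arm, was at 37.1, 30.8 and 37.1 CPM in the Hes1 cKO libraries 1, 2 and 3 and at 41.8, 43.8, 48.8 and 45.5 CPM in control 1, 2, 3 and 4. All Hes1 cKO libraries were under all controls, with a log2 fold change of -0.36 (SE 0.10, 95% interval -0.59 to -0.14), an exact permutation p of 0.0286 (two-sided, the smallest that 35 splits of 3 against 4 libraries allow) and an adjusted p of 0.497 by edgeR's quasi-likelihood test. Another annotated gene, Gm49356, held 11.1% of the windows of Ndufb9 and is absent from the count table. Ndufa11, another membrane arm subunit, was at 34.0, 23.9 and 26.8 CPM in the Hes1 cKO libraries and 39.1, 31.5, 43.4 and 37.4 CPM in the controls. Here Hes1 cKO 1 lay above control 2, and the log2 fold change was -0.42 (SE 0.15, 95% interval -0.75 to -0.10). Its promoter above is the one with the NRF1 motif on both strands. Ndufa4 was at 272, 236 and 259 CPM in the Hes1 cKO libraries and 328, 314, 328 and 259.6 CPM in the controls, with control 4 inside the range of Hes1 cKO, and a log2 fold change of -0.27 (SE 0.11, 95% interval -0.50 to -0.029). Ndufa6, a matrix arm subunit named after its values were seen, was at 158, 164 and 153 CPM in the Hes1 cKO libraries and 169.9, 187, 169.7 and 169 CPM in the controls, so its groups did not overlap, and the gap between them was smaller than the range of its controls. Ndufa1, picked the same way, is X-linked and needed to assemble the membrane arm. It was at 83.4, 75.6 and 89.3 CPM in the Hes1 cKO libraries and 95.2, 104, 105 and 85.0 CPM in the controls, with control 4 within the range of Hes1 cKO.

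On the higher side were Ndufb8 and Ndufb6, both membrane arm subunits. Ndufb8 was at 139.9, 131 and 155 CPM in the Hes1 cKO libraries and 134, 126, 150.1 and 138 CPM in the controls (log2 fold change 0.051, SE 0.093, 95% interval -0.16 to 0.26). Ndufb6 was at 69.1, 78.8 and 84.1 CPM in the Hes1 cKO libraries and 74.1, 78.3, 72.8 and 74.8 CPM in the controls (log2 fold change 0.044, SE 0.085, 95% interval -0.15 to 0.24). Both sets of libraries overlapped, and the values of Hes1 cKO 3 were the highest of all 7 for each gene. Ndufb2, chosen after its values were seen for being so low, had 51 to 75 counts per library and 1.36 CPM per kilobase of transcript. The next lowest subunit gene of complex I, Ndufs4, stood at 42.6 CPM per kilobase. The low level of Ndufb2 held in both groups. Its position overlaps those of Gm16272, Braf and Gm42420, the last of which is absent from the count table, and its length was taken as 2413 bases. The part of these in its low level was not tested.

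Complex II links the tricarboxylic acid cycle to the chain. Its 4 genes were all slightly lower, by a median of -0.04 in log2 fold change (-0.0051 without Hes1 cKO 1, -0.022 without control 3, -0.065 without control 4 and -0.083 without Hes1 cKO 3), and none had an unadjusted p under 0.05. Sdha, the flavoprotein that oxidises succinate, was at 971, 1102 and 1159.9 CPM in the Hes1 cKO libraries and 1093, 1123, 1045 and 1053 CPM in the controls. Its log2 fold change was -0.0010 (SE 0.092, 95% interval -0.21 to 0.21). Sdhb was at 336, 368 and 370.3 CPM in the Hes1 cKO libraries and 376, 363, 374 and 356 CPM in the controls, with a log2 fold change of -0.037 (SE 0.078, 95% interval -0.21 to 0.14). Complex II had the median closest to 0 of the 5 complexes.

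Complex III, the cytochrome bc1 complex, had 7 of 8 nuclear members lower and a median of -0.11, which was -0.064 without Hes1 cKO 2 and -0.16 without control 4. Uqcrb, which lies near the ubiquinone site, had the smallest adjusted p of all members. It was at 99.3, 102 and 97.3 CPM in Hes1 cKO 1, 2 and 3, and at 119, 128, 119 and 116 CPM in control 1, 2, 3 and 4. The groups were tight and did not overlap, the means being 99.5 ± 2.35 CPM (SD, n = 3) and 121 ± 5.22 CPM (SD, n = 4). The log2 fold change was -0.28 (SE 0.075, 95% interval -0.44 to -0.11), with an exact permutation p of 0.0286 and an adjusted p of 0.488 by edgeR's quasi-likelihood test. Of the windows of Uqcrb, 8.89% were present in other annotated genes. Uqcrc1, a core protein, was at 546, 568 and 605 CPM in the Hes1 cKO libraries and 571, 573, 586 and 534 CPM in the controls, with a log2 fold change of 0.018 (SE 0.081, 95% interval -0.16 to 0.20). Uqcrfs1, the Rieske iron-sulphur protein, was at 372, 367 and 394 CPM in the Hes1 cKO libraries and 417, 433, 431 and 362 CPM in the controls (log2 fold change -0.12, SE 0.091, 95% interval -0.32 to 0.083), and control 4 was its lowest library.

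Complex IV, cytochrome c oxidase, had 14 of 16 nuclear members lower and a median of -0.13. That median was the lowest of the nuclear groups with all libraries, but not without Hes1 cKO 2 (-0.063, against -0.082 in complex I) or without control 3 (-0.079, against -0.089 in complex III). Hes1 cKO 2 was the library with the lowest level for 10 of the 16 genes. Cox6a1 was at 925, 785 and 909 CPM in the Hes1 cKO libraries and 1011, 845, 987 and 807 CPM in the controls, a log2 fold change of -0.064 (SE 0.11, 95% interval -0.32 to 0.19). Cox4i1, the regulatory subunit where ATP binds, was at 622, 527 and 590.4 CPM in the Hes1 cKO libraries and 668, 634, 670.3 and 612 CPM in the controls (log2 fold change -0.16, SE 0.089, 95% interval -0.36 to 0.045), and Hes1 cKO 1 lay above control 4. Cox5a was at 104, 94.2 and 104 CPM in the Hes1 cKO libraries and 105, 115, 125 and 107 CPM in the controls. Its groups met without overlapping, since Hes1 cKO 1 and 3 and control 1 nearly coincided, and the log2 fold change was -0.16 (SE 0.090, 95% interval -0.37 to 0.039). Cox6b1, picked after its values were seen because its unadjusted p was under 0.05, was at 243, 202 and 248 CPM in the Hes1 cKO libraries and 285, 277, 292 and 239 CPM in the controls, with control 4 under Hes1 cKO 1 and 3.

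Complex V had 15 of 17 tested nuclear members lower and a median of -0.07, which was -0.14 without Hes1 cKO 3 and -0.12 without control 4. Its catalytic genes are the most abundant nuclear members. Atp5b, the catalytic beta subunit, was at 3505, 3428 and 3324 CPM in the Hes1 cKO libraries and 3949, 3570.0, 3543 and 3187 CPM in the controls. Atp5a1, the alpha subunit, was at 2730.3, 2715 and 2635 CPM in the Hes1 cKO libraries and 3046, 2867, 2883 and 2519.6 CPM in the controls. Their log2 fold changes were -0.059 (SE 0.10, 95% interval -0.29 to 0.17) and -0.071 (SE 0.10, 95% interval -0.29 to 0.15), with control 1 highest and control 4 lowest for both. Atp5g3 was at 655, 579.7 and 631 CPM in the Hes1 cKO libraries and 716, 732, 777 and 659 CPM in the controls, so the groups did not overlap, although Hes1 cKO 1 and control 4 were nearly level. Its log2 fold change was -0.21 (SE 0.091, 95% interval -0.42 to -0.0093), with an adjusted p of 0.817 by edgeR's quasi-likelihood test.

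Atp5e, the epsilon subunit of the central stalk, had the largest positive fold change of all nuclear members. It was at 194, 178 and 194 CPM in the Hes1 cKO libraries and 211, 152, 159 and 132 CPM in the controls, a log2 fold change of 0.21 (SE 0.14, 95% interval -0.11 to 0.53). Control 1 was the highest library and the other controls were the lowest, so the difference rested on 3 of 4 controls. Atp5s was at 15.0, 16.1 and 15.5 CPM in the Hes1 cKO libraries and 12.2, 16.5, 14.05 and 16.3 CPM in the controls (log2 fold change 0.070, SE 0.13, 95% interval -0.22 to 0.36). Atp5o, the stalk subunit that confers oligomycin sensitivity, and Atp5l, subunit g, were picked after their values were seen. Atp5o was at 12.3, 8.65 and 11.3 CPM in the Hes1 cKO libraries and 12.7, 13.7, 13.7 and 13.2 CPM in the controls. Atp5l was at 16.6, 16.1 and 17.6 CPM in the Hes1 cKO libraries and 19.8, 18.6, 20.3 and 18.5 CPM in the controls. Both lay under the controls in every Hes1 cKO library. Of the windows of Atp5o, 27.9% were present in another annotated gene. The pseudogenes Atp5l-ps1 and Atp5l2-ps had at most 0.110 and 0.274 CPM and were not tested.

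Levels of the mitochondrial genes differed more among the control libraries than between the groups. Of 12 tested, 9 were lower and 3 higher, the median log2 fold change was -0.09, and 0 had an unadjusted p under 0.05. The number under 0.05 was 2 without control 1, where 11 were lower and 1 higher. It was 1 with DESeq2, with limma-voom and without the filter on low counts, and 0 under the other settings. Control 1 was the lowest of the 4 control libraries for all 12. As the median log2 deviation from the control mean, control 1 lay at -0.37, control 2, 3 and 4 at 0.22, 0.08 and 0.06, and Hes1 cKO 1, 2 and 3 at -0.24, 0.0033 and 0.08. The median fold change was 0.04 without Hes1 cKO 1, -0.0019 without control 2, -0.053 without control 3, -0.19 without Hes1 cKO 3 and -0.22 without control 1, so its sign rests on single libraries. The median was -0.01, with 6 genes lower and 6 higher, when the length trend was removed.

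Among genes with few or no windows shared with a nuclear copy, mt-Cytb, the only subunit of complex III made in the mitochondrion, was at 7636, 8125 and 8889.6 CPM in Hes1 cKO and 7294, 10090.2, 9323 and 9243 CPM in control. Control 1 was lowest of all 7 libraries, and the log2 fold change was -0.13 (SE 0.14, 95% interval -0.44 to 0.18). The complex I genes with few or no shared windows also had control 1 as their lowest library. mt-Nd1 was at 4353, 5246 and 5061 CPM in the Hes1 cKO libraries and 4119, 6295, 5442 and 5263 CPM in the controls (log2 fold change -0.11, SE 0.15, 95% interval -0.45 to 0.23). mt-Nd2 was at 3257, 4421 and 4176 CPM in the Hes1 cKO libraries and 2879, 4929.6, 4015 and 4019 CPM in the controls (log2 fold change -0.0033, SE 0.18, 95% interval -0.41 to 0.41). Control 1 was lowest and control 2 highest for both genes. mt-Nd5 was at 4929, 5289 and 5966 CPM in the Hes1 cKO libraries and 4586, 6599, 5678 and 6567 CPM in the controls (log2 fold change -0.12, SE 0.15, 95% interval -0.45 to 0.22). mt-Nd6, the only protein gene on the other strand of mitochondrial DNA, was at 848, 833 and 1044 CPM in the Hes1 cKO libraries and 675, 1119, 1065 and 1152 CPM in the controls (log2 fold change -0.14, SE 0.18, 95% interval -0.55 to 0.26). The median log2 fold change of these 5 genes was -0.12, between -0.14 and -0.0033.

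mt-Co1, the catalytic subunit of complex IV and the most counted member, had the lowest fold change among genes of mitochondrial DNA. It was at 14008, 14595 and 15263 CPM in Hes1 cKO 1, 2 and 3, and at 14406, 19874, 18784 and 18882 CPM in control 1, 2, 3 and 4. The 3 Hes1 cKO libraries lay close together under 3 controls, while control 1 lay among them. The log2 fold change was -0.30 (SE 0.14, 95% interval -0.62 to 0.021), with an exact permutation p of 0.114 and an adjusted p of 0.872 by edgeR's quasi-likelihood test. mt-Nd4, with part of its length copied, was at 2463, 2806 and 3424 CPM in the Hes1 cKO libraries and 1439, 3658, 3169 and 3147 CPM in the controls, and control 1 had less than any other library. Its log2 fold change was 0.022 (SE 0.27, 95% interval -0.59 to 0.64).

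The genes with near-complete nuclear copies were all at low counts, and none separated the groups. mt-Co2 was at 13.8, 21.8 and 23.3 CPM in the Hes1 cKO libraries and 19.1, 24.9, 23.2 and 20.3 CPM in the controls (log2 fold change -0.16, SE 0.18, 95% interval -0.56 to 0.25). mt-Co3 was at 13.3, 14.1 and 20.7 CPM in the Hes1 cKO libraries and 12.4, 19.96, 19.3 and 15.99 CPM in the controls (log2 fold change -0.078, SE 0.20, 95% interval -0.53 to 0.38). mt-Atp6 was at 9.36, 12.8 and 14.7 CPM in the Hes1 cKO libraries and 7.17, 16.3, 14.8 and 12.99 CPM in the controls (log2 fold change -0.064, SE 0.26, 95% interval -0.65 to 0.53). These 3 genes encode the other oxidase subunits of the mitochondrion and the proton channel of the ATP synthase, and their groups overlapped. mt-Nd3 was at 3.70, 4.35 and 3.65 CPM in the Hes1 cKO libraries and 2.24, 4.45, 3.68 and 4.04 CPM in the controls (log2 fold change 0.11, SE 0.25, 95% interval -0.44 to 0.67). mt-Nd4l was at 1.48, 1.19 and 1.18 CPM in the Hes1 cKO libraries and 0.803, 1.27, 1.37 and 0.928 CPM in the controls (log2 fold change 0.23, SE 0.29, 95% interval -0.43 to 0.88). mt-Atp8 had at most 0.109 CPM in any library.

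**Figure D4:**
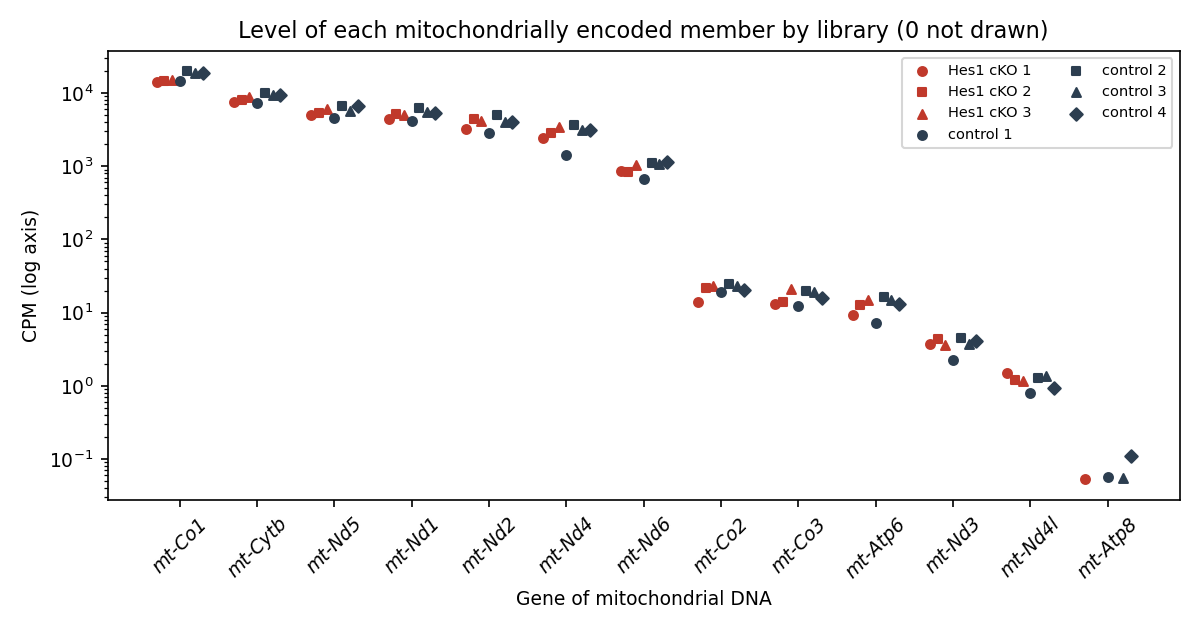
Level of each of the 13 protein genes of mitochondrial DNA in CPM (log axis), with 1 symbol per library (red Hes1 cKO, dark control; a value of 0 is not drawn). The 7 genes on the left lie at 675 CPM or more, the others at 24.9 CPM or less, and control 1 is the lowest control for all 12 tested genes.

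As a share of all counts of a library, the 13 mitochondrial genes took 3.84%, 4.10% and 4.40% in the Hes1 cKO libraries and 3.46%, 5.18%, 4.75% and 4.91% in control 1, 2, 3 and 4. The means were 4.11% ± 0.277 (SD, n = 3) and 4.58% ± 0.764 (SD, n = 4). Control 1 had the lowest share of all and the other controls the highest, so the groups overlapped through control 1 alone. Without it, the difference of means grew from -0.464 to -0.835 percentage points, and without control 2 it was -0.262. The 84 nuclear members took 2.34%, 2.18% and 2.35% in the Hes1 cKO libraries and 2.44%, 2.42%, 2.50% and 2.24% in control. For comparison, the mitochondrial ribosomal RNAs mt-Rnr1 and mt-Rnr2 took 0.214%, 0.393% and 0.415% in the Hes1 cKO libraries and 0.199%, 0.359%, 0.298% and 0.299% in control. Hes1 cKO 1 and control 1, the low libraries for the mitochondrial messenger RNAs, were thus also the low ones for ribosomal RNA.

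**Figure D5:**
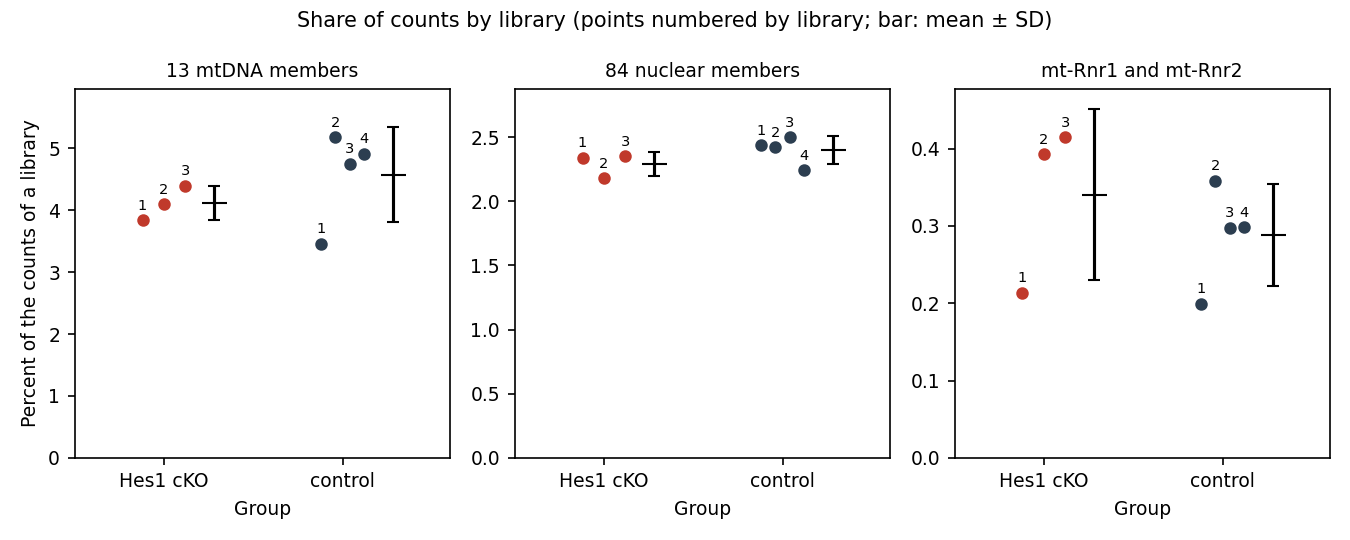
Percent of the counts of each library taken by the mitochondrial members, the nuclear members and the mitochondrial ribosomal RNAs, with points numbered by library and mean ± SD beside them (3 Hes1 cKO, 4 control). Control 1 has the lowest mitochondrial share, 3.46%, and the groups overlap in every panel.

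Markers of cell types differed between libraries too. Stroma markers were highest in these same libraries, at 684 CPM in Hes1 cKO 1 and 559 CPM in control 1, against 320 to 419 CPM in the other 5. Immune cell markers were likewise highest there, at 105 CPM in Hes1 cKO 1 and 110 CPM in control 1, against 77.2 to 88.3 CPM in the other 5. Proximal tubule markers were highest in control 1, at 19729.5 CPM, and lowest in Hes1 cKO 1, at 14517 CPM. Markers of the adrenal gland, which lies against the kidney, summed to 52.3, 2.82 and 1177 CPM in the Hes1 cKO libraries and to 890, 229, 3.18 and 4.42 CPM in control. Intercalated cell markers, from a cell type rich in mitochondria, split by genotype, with 1942 to 2119.8 CPM in Hes1 cKO and 944 to 1098 CPM in control.

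The share taken by the nuclear members was lowest in Hes1 cKO 2 and highest in control 3, and 3 marker lists had the same extremes. Principal cell markers summed to 1003 CPM in Hes1 cKO 2 and 2274 CPM in control 3, those of the distal convoluted tubule to 1309 and 1905 CPM, and those of tubular injury to 560.3 and 1553 CPM. The part of any of these cell types in the levels of oxidative phosphorylation genes was not tested.

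Levels were compared between genes per kilobase of the principal transcript. Of the genes of mitochondrial DNA free of near-complete copies, mt-Co1 stood at 10708 CPM per kilobase, mt-Cytb at 7568 and mt-Nd1 at 5341. The highest nuclear members were Atp5b at 1827, Cox6a1 at 1569, Atp5a1 at 1121, Cox8a at 951 and Atp5g3 at 944 CPM per kilobase. The median nuclear member stood at 150.0 CPM per kilobase in complex I, 275 in complex II, 349 in complex III, 249 in complex IV and 275 in complex V. These are levels, averaged over all 7 libraries.

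Several subunits have isoforms typical of other tissues, and kidney used the common one in every case examined. The share of an isoform was computed from CPM per kilobase within its family. Cox4i1 made up 99.9% of Cox4 in both groups, and Cox4i2, the isoform of lung and of hypoxia, was at 0.582, 0.297 and 0.706 CPM in the Hes1 cKO libraries and 0.803, 0.635, 0.659 and 0.764 CPM in the controls. Ndufa4l2, which is induced by hypoxia, made up 0.940% of its pair in Hes1 cKO and 0.836% in control, and was at 4.87, 4.15 and 3.76 CPM in the Hes1 cKO libraries and 5.74, 3.97, 4.94 and 3.66 CPM in the controls (log2 fold change -0.10, SE 0.21, 95% interval -0.57 to 0.37). Neither gene separated the groups.

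Isoforms of heart and skeletal muscle were low as well. Cox6a2 was at 0.741, 1.58 and 1.94 CPM in the Hes1 cKO libraries and 2.24, 0.265, 4.34 and 2.73 CPM in the controls, with the lowest and the highest value both among the controls, and its log2 fold change was -0.75 (SE 0.67, 95% interval -2.27 to 0.77). Cox7a1 made up 12.1% of the Cox7a set in Hes1 cKO and 11.5% in control, at 19.8, 17.4 and 23.9 CPM in the Hes1 cKO libraries and 18.5, 23.4, 22.1 and 16.3 CPM in the controls (log2 fold change 0.020, SE 0.16, 95% interval -0.33 to 0.37). Cox8b made up 3.74% and 3.27% of its pair, at 13.8, 13.7 and 9.998 CPM in the Hes1 cKO libraries and 11.1, 16.8, 9.99 and 9.83 CPM in the controls (log2 fold change 0.064, SE 0.21, 95% interval -0.41 to 0.54). Cox8b is also an adipocyte gene, and the adipocyte markers summed to 314 to 345 CPM in Hes1 cKO and 264 to 346 CPM in control. Their part in the level of Cox8b was not tested. Cox6b2, known from testis, made up 9.71% ± 0.814 (SD, n = 3) of its pair in knockout libraries and 8.88% ± 1.59 (SD, n = 4) in the controls, at 21.0, 20.9 and 24.6 CPM in the Hes1 cKO libraries and 23.0, 18.4, 29.9 and 23.9 CPM in the controls (log2 fold change -0.10, SE 0.16, 95% interval -0.46 to 0.25).

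The c subunit of the ATP synthase is made from 3 genes that encode the same mature protein. Atp5g3 made up 73.7% ± 0.512 (SD, n = 3) of their summed level per kilobase in knockout libraries and 76.1% ± 1.45 (SD, n = 4) in the controls. The single libraries were at 74.3%, 73.5% and 73.3% in the Hes1 cKO libraries and at 75.5%, 77.8%, 76.5% and 74.4% in control, so the groups did not overlap, with Hes1 cKO 1 and control 4 almost level. Atp5g2 made up 17.7% against 16.0%, and Atp5g1 8.63% against 7.96%, both with overlapping libraries. All of these shares rest on the transcript lengths used, 2675.5 bases for Atp5g1, 586 for Atp5g2 and 718.5 for Atp5g3. In CPM, without length, Atp5g1 stood above Atp5g2, with means over all libraries of 276 and 123 CPM. Of the windows of Atp5g2, 34.7% were present in another annotated gene. Atp5g3 was the only one of 16 isoforms examined whose shares did not overlap between groups, and this comparison got no test.

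Genes around the machinery gave the same picture of small differences. In a list of 6 respiratory chain genes outside the symbol rule, all 6 were lower (median log2 fold change -0.19), and edgeR called 0 of them. Atpif1, the inhibitor of ATP synthase hydrolysis, was at 31.0, 23.7 and 29.5 CPM in the Hes1 cKO libraries and 36.4, 36.5, 41.1 and 40.8 CPM in the controls, below all controls in every Hes1 cKO library. Its log2 fold change was -0.46 (SE 0.11, 95% interval -0.72 to -0.21), with an adjusted p of 0.321 by edgeR's quasi-likelihood test and of 0.0496 by DESeq2, the only call by edgeR, DESeq2 or limma-voom in the lists of mitochondrial genes. Atpif1 was picked after its values were seen, and DESeq2 called 0.849% of all genes. Mitochondrial ribosomal proteins, which translate the 13 mitochondrial messages, were lower for 69 of 75 genes, with a median of -0.11 that is close to that of the nuclear members. Assembly factors were lower for 30 of 43 (median -0.05), tricarboxylic acid cycle genes for 12 of 16 (-0.05), fatty acid oxidation genes for 10 of 13 (-0.05) and mitochondrial carriers for 7 of 9 (-0.06).

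Of 20 regulators of mitochondrial biogenesis, 13 had a higher and 7 a lower mean in Hes1 cKO, with a median of 0.03. As the median log2 deviation from the control mean, Hes1 cKO 1, 2 and 3 lay at -0.11, 0.12 and 0.045 and the controls between -0.017 and 0.057. Hes1 cKO 1 was thus below every control, Hes1 cKO 2 above every control and Hes1 cKO 3 among them. Ppargc1a, the coactivator that drives biogenesis, was at 81.8, 99.3 and 104 CPM in the Hes1 cKO libraries and 75.5, 85.8, 99.995 and 98.3 CPM in the controls (log2 fold change 0.079, SE 0.12, 95% interval -0.20 to 0.36). Esrra, a receptor that binds the TCAAGGTCA motif, was at 302, 327 and 333 CPM in the Hes1 cKO libraries and 322, 280.1, 326 and 295 CPM in the controls (log2 fold change 0.070, SE 0.087, 95% interval -0.13 to 0.27). Tfam, which packages and transcribes mitochondrial DNA, had a log2 fold change of -0.051 (SE 0.086, 95% interval -0.24 to 0.14), and Cs, citrate synthase, one of -0.045 (SE 0.083, 95% interval -0.23 to 0.14). All 4 had overlapping groups and none was called by edgeR.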

How the data were processed

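Whole-kidney total RNA was read as 150 bp pairs, per the labels' protocols. The authors deposited whole-number read counts per gene, without normalization, in 2 tables. The submitters' processing notes name FastQC, STAR and DESeq2 and the builds mm10 and GRCm38, without versions. The sources used here do not name the counting program, its strand setting or its annotation, so overlapping and antisense genes may share reads. The 7 columns of the first table whose names show a genotype were used (3 Hes1 cKO, 4 control). The other 9 columns of per-sample values match no single sample and were not used.

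Genes kept by filterByExpr (minimum count 10) numbered 15615. Counts were scaled by TMM and compared by edgeR's quasi-likelihood test (edgeR 4.0.16, R 4.3.3) with no covariate. Benjamini-Hochberg adjustment ran over all 15615 genes, with calls under 0.05. Intervals at 95% came from the standard error and degrees of freedom of that fit. Exact permutation tests ran over 35 splits on log2(CPM + 1), with a smallest p of 0.0286. Pairs of libraries of a group differed beyond sampling noise. On simulated data for this comparison with 15615 genes, 24 and 40 of 50 genes were called at true log2 changes of -1 and 1, and 3 and 6 of 50 at -0.5 and 0.5.

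Alternatives were DESeq2 1.42.0 (Wald test), limma-voom 3.58.1, other scalings and filters, Xist as a covariate and each library left out. Removal of the length trend (lowess, span 0.3, principal transcripts of GENCODE M21) was chosen after seeing the data. Members and lists were chosen with earlier results of these data known. Named were all mitochondrial members, the 2 nuclear members per complex with the highest mean CPM, core catalytic genes, tissue-restricted isoforms, and the 5 higher and 5 lower nuclear members with the smallest unadjusted p. Of the related genes, Ppargc1a, Esrra, Tfam and Cs were named. Genes outside this rule are marked as picked after their values were seen. One gene that the rule names is not reported here.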

Additional observations from a re-analysis of the deposited data

How the results depend on the processing

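The 53 called genes became 130 with DESeq2, 102 without the filter on low counts, and 25 to 47 when 1 library was left out (25 without Hes1 cKO 2, 27 without Hes1 cKO 1). No member was called by edgeR's quasi-likelihood test, DESeq2 or limma-voom under any of these settings. Hes1 stayed called throughout, with log2 fold changes from -1.72 to -1.51 when 1 library was left out. The nuclear median was below 0 under every setting, from -0.15 to -0.07 with a library left out, and at -0.03 with the length trend removed. The mitochondrial median ranged from -0.22 to 0.04 with a library left out. The share of counts was recomputed with libraries left out (-0.835 to -0.262 percentage points), since no other setting alters it.

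Of 710 values computed under alternatives, 49 changed sign. One was the mitochondrial median without Hes1 cKO 1, given above, and the other 48 belonged to 18 of the 39 named members, none of them called. With 1 library left out, the log2 fold changes ranged as follows. In mitochondrial genes they ran from -0.13 to 0.12 for mt-Nd2, -0.055 to 0.23 for mt-Nd3, -0.20 to 0.16 for mt-Nd4, -0.30 to 0.039 for mt-Co2, -0.30 to 0.039 for mt-Co3 and -0.26 to 0.097 for mt-Atp6. In complexes I to III they ran from -0.021 to 0.11 for Ndufv1, -0.017 to 0.10 for Ndufb8, -0.020 to 0.12 for Ndufb6, -0.057 to 0.066 for Sdha, -0.062 to 0.0050 for Sdhb and -0.023 to 0.050 for Uqcrc1. In the others they ran from -0.12 to 0.0065 for Cox6a1, -0.21 to 0.026 for Ndufa4l2, -0.21 to 0.029 for Cox6b2, -0.11 to 0.12 for Cox7a1, -0.019 to 0.28 for Cox8b and -0.0100 to 0.13 for Atp5s. mt-Nd2 was at 0.0093 with scaling by total counts, 0.011 with limma-voom, 0.010 with Xist as a covariate and 0.068 with the length trend removed. Sdha was at 0.00013 with DESeq2 size factors, 0.014 with total counts, 0.00011 with DESeq2 and 0.0015 with Xist. Cox8b was at -0.013 with Xist. Removal of the length trend gave 0.0054 for mt-Co3, 0.029 for mt-Atp6, 0.024 for Sdhb and 0.026 for Cox6a1. The cause was not tested.

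No paired analysis was possible because the columns carry no replicate numbers of the labels. The median half-width of the 95% interval was 0.22 for nuclear members, larger than their median fold change. The labels give the sex of each titled sample, with 4 female and 3 male Hes1 cKO samples and 3 female and 6 male controls. Sex is not given for the columns, and Xist was high in 1 of 3 Hes1 cKO and 2 of 4 control libraries. No molecular identifiers were read, so PCR copies could not be set apart.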
